A study of Homo sapiens with 6 samples.

Results

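THE1 elements are long terminal repeat (LTR) retrotransposons of the primate genome, and RNA from their copies was measured in HaCaT cells, an immortalised human keratinocyte line, with and without ultraviolet B (UVB) light. The members are the rows of the authors' expression table that are marked as repeats and whose repeat name begins with THE1. They number 60662 of the 771683 repeat copies in the table. Of these, 50213 are LTR copies (4308 THE1A, 22924 THE1B, 10046 THE1C and 12935 THE1D) and 10449 are internal copies (1481 THE1A-int, 4277 THE1B-int, 1824 THE1C-int, 2667 THE1D-int and 200 of the name THE1-int). The rule uses their names and no measured value, though it was set with earlier results of these data known.

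By its title, the study asks if ultraviolet exposure switches on human endogenous retroviruses and, through them, the RNA sensor RIG-I. The UVB group is 3 dishes of HaCaT cells irradiated with UVB (50 mJ in the sample titles, with no area stated) and then cultured for 24 h. The control group is 3 dishes of the same line, titled as controls and labelled with the same 24 h of culture. The labels carry the same treatment text for all 6 samples and do not say whether controls were handled under the lamp without light. All libraries thus come from 1 cell line, and it is not stated whether the dishes were independent cultures, so a p-value here reflects differences among these particular samples, possibly technical ones.

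THE1 is a family of the mammalian apparent LTR retrotransposons (MaLR), which also hold the related MST and MLT1 families. A full element has an LTR at each end, which carries the promoter and the polyadenylation signal, and an internal sequence between them that encodes no reverse transcriptase, so that the element relied on proteins of other elements to move. Recombination between the LTRs of an element often leaves a single LTR in the genome, and such LTRs can act as promoters or enhancers of neighbouring genes. A THE1B LTR is known to drive CSF1R in Hodgkin lymphoma, and a THE1B element is known to control CRH in the placenta. The deposited tables name the copies by a pair of numbers joined by a point, with no genome position, so copies are called here by those names, and no gene is assigned to them.

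The libraries held 72517243, 88484020 and 79331735 assigned reads after UVB, against 69373448, 66272443 and 81303733 in controls. Reads on all repeat copies made up 0.750, 0.791 and 0.771% of assigned reads after UVB, against 0.829, 0.959 and 0.787% in controls, so that control replicate 2 stood highest. All 10 keratinocyte markers of the list were present, at means of 1.38 to 301 FPKM (fragments scaled by feature length and library total). Their summed level was 491 to 577 FPKM after UVB, against 744 to 921 FPKM in controls. Most of that sum and of its fall lay in KRT5 and SFN. KRT5 averaged 122 FPKM after UVB and 287 FPKM in controls, and SFN 248 FPKM after UVB and 354 FPKM in controls. By limma 2 of the 10 rose, 5 fell and 3 did not pass (adjusted p under 0.05). Among all 14921 genes tested 27.9% passed, 17% as higher and 11% as lower. The markers of melanocytes, fibroblasts, leukocytes and endothelial cells reached at most 0.842, 0.101, 0.116 and 0.0694 FPKM, and 1 of 4, 0 of 5, 3 of 5 and 1 of 4 of them were at 0 in every library. In bulk RNA, a change in the number of cells of a kind and a change in RNA per cell cannot be told apart.

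THE1 RNA as a whole was close between the groups. In RPM, reads per 1000000 assigned reads, it amounted to 414, 444 and 440 RPM after UVB, against 465, 552 and 419 RPM in controls. The groups overlapped, since control replicate 3 lay below UVB replicates 2 and 3, and control replicate 2 stood above all others. The means were 433 ± 16.3 RPM after UVB and 479 ± 67.4 RPM in controls (SD, n = 3 each). These levels rest on 30035, 39313 and 34906 THE1 reads after UVB, against 32282, 36553 and 34043 in controls. THE1 took 5.52, 5.61 and 5.70% of all repeat reads after UVB, against 5.62, 5.75 and 5.32% in controls, a difference of 0.05 percentage points (2-sided exact permutation test, p = 0.9, n = 3 each). A design of 3 against 3 libraries cannot give a p below 0.1, and 25 such tests on single values were run, with Benjamini-Hochberg adjusted p-values of 0.3125 or more in every one.

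The LTR names carry the promoters of the family. Their summed level was 241, 261 and 257 RPM after UVB, against 280, 337 and 253 RPM in controls. UVB replicates 2 and 3 lay above control replicate 3, so the groups overlapped, and the log2 difference of -0.19 did not pass the exact permutation test (p = 0.3, n = 3 each). Without control replicate 2 that difference was -0.07, and without control replicate 3 it was -0.28. With TMM scaling of the libraries it was -0.22, with the smallest p that the exact permutation test can give (p = 0.1, n = 3 each). The internal names summed to 173, 184 and 183 RPM after UVB, against 185, 215 and 166 RPM in controls. They too overlapped between the groups (log2 difference -0.06, exact permutation p = 0.7, n = 3 each), and without control replicate 2 the difference was 0.04, in the other direction. Without control replicate 3 it was -0.15.

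Scaled to the length of all copies, LTR and internal sequence were covered alike over the 6 libraries together, with 16.6 RPM per megabase of LTR and 16.5 RPM per megabase of internal sequence. By group the order differed. LTR sequence had 15.4 and internal sequence 16.1 RPM per megabase after UVB, against 17.7 and 16.9 RPM per megabase in controls. Per megabase THE1A-int stood highest at 30.1 RPM and THE1C-int lowest at 10.5 RPM. Among LTR names THE1A stood highest at 20.6 RPM per megabase, followed by THE1B at 17.5, THE1D at 15.98 and THE1C at 13.6.

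None of the 9 THE1 names passed the test for a difference between UVB and control cells (limma on log2(RPM + 0.1), Benjamini-Hochberg adjusted p under 0.05), where 1.21% of the 577 repeat names tested passed. At an unadjusted p under 0.05, limma marked 1 of the 9 names, against 17% of all names, and edgeR on the recovered reads called 0, against 3.47% of all names, and marked 2 at that level, against 27%. The log2 fold change was below 0 for 8 of the 9 names, as it was for 82% of all names, and the median was -0.16 over THE1 names and -0.18 over all names.

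THE1B, the most numerous LTR name, had 116, 128 and 124 RPM after UVB, against 136, 161 and 125 RPM in controls (log2 fold change -0.19, SE 0.11, limma adjusted p = 0.349). UVB replicate 2 lay above control replicate 3, so the groups overlapped, and without control replicate 2 the fold change was -0.09. Without control replicate 3 it was -0.27 (limma adjusted p = 0.0991). THE1C had 40.2, 41.2 and 41.0 RPM after UVB, against 48.1, 58.5 and 41.8 RPM in controls. Every UVB library of THE1C lay below every control library, though UVB replicate 2 only narrowly below control replicate 3. Its log2 fold change of -0.26 (SE 0.12) had the lowest p of the 9 names (limma adjusted p = 0.237), and without control replicate 3 it was -0.38 and passed (limma adjusted p = 0.0422). Without control replicate 2 it was -0.14 (limma adjusted p = 0.513). THE1D averaged 62.2 ± 2.81 RPM after UVB and 70.3 ± 11.9 RPM in controls, and THE1A 27.6 ± 2.14 RPM after UVB and 29.7 ± 4.16 RPM in controls (SD, n = 3 each). The ranges of both names overlapped, and without control replicate 2 their log2 fold changes were -0.04 for THE1D and 0.01 for THE1A. Without control replicate 3 they were -0.28 for THE1D (limma adjusted p = 0.0997) and -0.18 for THE1A (limma adjusted p = 0.296).

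Among internal names, THE1A-int was the only one with a fold change above 0. It had 53.2, 52.7 and 58.6 RPM after UVB, against 55.1, 54.8 and 45.4 RPM in controls, with a log2 fold change of 0.09 (SE 0.12, limma adjusted p = 0.728). Its groups overlapped, with UVB replicate 3 highest and control replicate 3 lowest. THE1B-int averaged 67.4 ± 2.85 RPM after UVB and 74.0 ± 11.6 RPM in controls, and THE1D-int 34.8 ± 3.11 RPM after UVB and 39.0 ± 5.85 RPM in controls (SD, n = 3 each). THE1C-int, with 20.9 ± 0.906 RPM after UVB and 21.3 ± 3.28 RPM in controls, and THE1-int, with 1.95 ± 0.231 RPM after UVB and 2.33 ± 0.427 RPM in controls, had log2 fold changes of -0.02 and -0.23. The plot by repeat name shows these levels library by library.

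**Figure D1:**
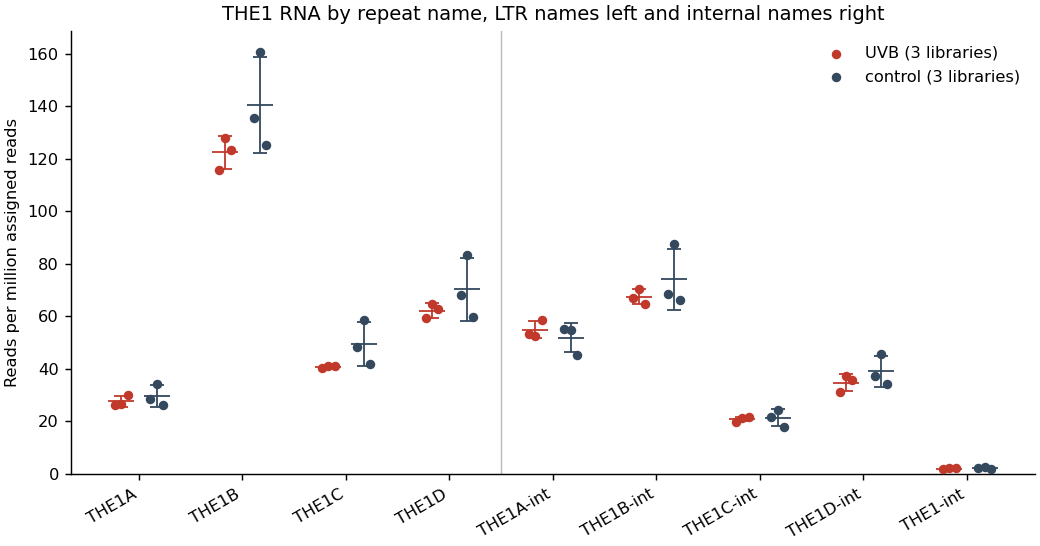
RNA of each THE1 name in RPM (vertical axis), LTR names left of the line and internal names right of it. Points are the 3 UVB and 3 control libraries, dashes the means and bars the SD; THE1B is the highest name in both groups (122 RPM after UVB and 141 RPM in controls on average), and the bars of the groups overlap for every name.

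The balance of LTR and internal reads was compared within each library, where the library total cancels. For all THE1 names together, LTR reads per internal read came to 1.39, 1.42 and 1.41 after UVB, against 1.51, 1.57 and 1.53 in controls. The groups did not overlap, and every UVB library lay below every control library. The means were 1.41 ± 0.0134 after UVB and 1.54 ± 0.0268 in controls (SD, n = 3 each), a log2 difference of -0.13 with the smallest p that the exact permutation test can give here (p = 0.1, adjusted p = 0.3125). The difference was -0.10 without the copy of highest mean RPM, an internal THE1A-int copy, and -0.11 to -0.14 on leaving out each library in turn.

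By subfamily the ratio differed most in THE1C, at 2.02, 1.93 and 1.91 after UVB, against 2.21, 2.40 and 2.34 in controls, with no overlap (log2 difference -0.24, exact permutation p = 0.1, n = 3 each). THE1A had 0.491, 0.506 and 0.513 after UVB, against 0.517, 0.625 and 0.578 in controls, again with no overlap (log2 difference -0.18, exact permutation p = 0.1, n = 3 each). That difference was -0.11, with overlapping groups, once the copy of highest mean RPM was left out (exact permutation p = 0.3, n = 3 each). In THE1B and THE1D the groups overlapped, with mean ratios of 1.82 ± 0.0927 after UVB and 1.90 ± 0.0719 in controls for THE1B, and 1.79 ± 0.0863 after UVB and 1.80 ± 0.0480 in controls for THE1D (SD, n = 3 each). THE1A is the only subfamily with fewer LTR reads than internal reads in every library.

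In the related MST family the LTR to internal ratio was 2.52, 2.24 and 2.33 after UVB, against 2.24, 2.07 and 2.28 in controls (log2 difference 0.11, exact permutation p = 0.3, n = 3 each), with overlapping groups. That difference was 0.06 without UVB replicate 1 and 0.06 without control replicate 2. Set against MST within each library, the THE1 ratio was lower after UVB by a log2 difference of -0.23, with no overlap (exact permutation p = 0.1, n = 3 each). Set against MLT1 the log2 difference was -0.13, also with no overlap (exact permutation p = 0.1, n = 3 each). UVB replicate 1, at 0.0859, lay only narrowly below control replicate 1, at 0.0865. Over copies with a mean of at least 0.5 FPKM the difference was -0.13 with an exact permutation p of 0.2.

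Total THE1 reads were 1.01, 0.991 and 1.00 times MST reads after UVB, against 0.945, 0.923 and 0.946 times in controls. Every UVB library lay above every control library (log2 difference 0.09, exact permutation p = 0.1, adjusted p = 0.3125, n = 3 each). Against MLT1 reads the THE1 ratio was 0.267, 0.273 and 0.276 after UVB and 0.275, 0.277 and 0.266 in controls, which overlapped (exact permutation p = 0.9, n = 3 each).

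**Figure D2:**
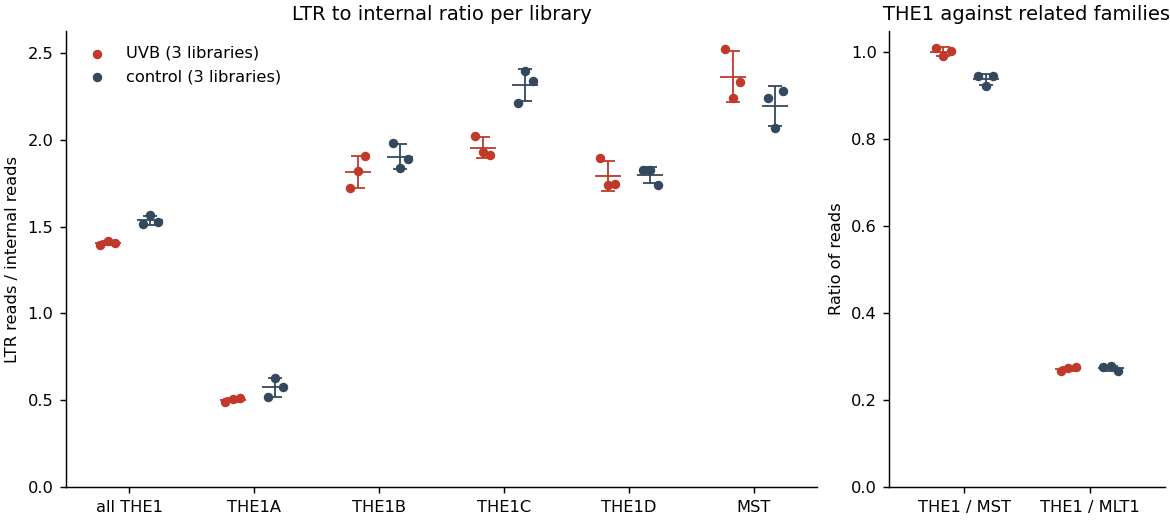
Left, LTR reads divided by internal reads (vertical axis) for all THE1 names, each subfamily and the related MST family; right, THE1 reads divided by MST or MLT1 reads. Points are the 3 UVB and 3 control libraries, dashes the means and bars the SD; the groups do not overlap for all THE1 (1.41 after UVB and 1.54 in controls on average), THE1A, THE1C and THE1 over MST.

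Rows that share the number before the point in their copy name were taken as parts of 1 element. The files do not state this, but in all 7958 groups that hold both LTR and internal rows, these are of 1 subfamily. The 60662 copies form 41952 such elements, of which 33161 (79.0%) have LTR rows alone, 7958 (19.0%) have LTR and internal rows, and 833 (1.99%) have internal rows alone. LTR sequence was covered at 18.1 RPM per megabase in elements with LTR rows alone and at 12.9 RPM per megabase in elements that also have an internal row. Internal sequence was covered at 15.0 RPM per megabase in elements with an LTR and at 60.0 RPM per megabase in elements without one.

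LTR copies of both kinds of element lay lower on average after UVB. In elements with an internal part, LTR RNA averaged 57.4 ± 3.84 RPM after UVB and 66.9 ± 11.2 RPM in controls, and in LTR-only elements 196 ± 7.12 RPM after UVB and 223 ± 31.4 RPM in controls (SD, n = 3 each). Both pairs of groups overlapped (exact permutation p = 0.3 for each, n = 3 each). With TMM scaling the log2 differences were -0.24 in elements with an internal part and -0.21 in LTR-only elements (exact permutation p = 0.2 and 0.1). Within 98 elements with at least 60 reads in each part over the 6 libraries, LTR and internal parts were both higher after UVB in 32, both lower in 36 and opposite in 30. Across these elements the log2 fold changes of the parts had a Pearson correlation of 0.50 and a Spearman correlation of 0.54. Elements are not independent replicates, and both parts of an element come from the same libraries, so these values are descriptions.

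Elements with the order LTR, internal, LTR in their row numbers number 4238. Of 58 with at least 60 reads in the internal part and in the LTRs together, the LTR with the higher level in controls was also the higher one after UVB in 25 (43.1%). Of 105 with at least 60 reads in the internal part and no tie between the LTRs, this held for 51 (48.6%). Both shares lie near an even split, which is not what an unchanged order of the LTRs would give. No such share between libraries of the same group is given here, and neither share was tested. They therefore do not show that the stronger LTR changes with UVB.

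Few THE1 copies held reads at all. Reads were found in 2794, 3144 and 2972 copies after UVB, against 3295, 3664 and 3235 in controls. Thinned to the depth of the shallowest library, 66272443 reads, the numbers were 2762, 3032 and 2907 after UVB, against 3276, 3664 and 3151 in controls. The groups did not overlap, and UVB libraries held fewer detected copies (exact permutation p = 0.1, adjusted p = 0.3125, n = 3 each). Other repeat copies showed the same direction, with 40049, 44357 and 41468 detected after UVB, against 46982, 51353 and 44197 in controls, where UVB replicate 2 lay above control replicate 3. THE1 copies made up 6.45, 6.40 and 6.55% of all detected repeat copies after UVB, against 6.52, 6.66 and 6.65% in controls, an overlap that did not pass (exact permutation p = 0.2, n = 3 each).

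Over the 6 libraries together 7405 THE1 copies (12.2%) had a read, against 14.3% of all repeat copies, and 846 had reads in all 6. Of the 7405, 37 (0.4997%) had reads in all UVB libraries and none in controls, where all repeat copies with a read give 0.539%. The reverse pattern, reads in all controls and none after UVB, held for 60 (0.810%), against 0.966% of all repeat copies with a read. Both shares were near those of repeats in general.

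Weakly covered copies were compared apart from the others. LTR copies with a mean under 0.5 FPKM summed to 122, 130 and 130 RPM after UVB, against 153, 193 and 132 RPM in controls, with no overlap (log2 difference -0.31, exact permutation p = 0.1, n = 3 each). Without control replicate 2 the difference was -0.16, and without control replicate 3 it was -0.44. Internal copies under 0.5 FPKM summed to 81.4, 89.1 and 84.2 RPM after UVB, against 93.2, 122 and 83.4 RPM in controls, with overlap (log2 difference -0.21, exact permutation p = 0.3, n = 3 each), and that difference was -0.06 without control replicate 2 and -0.33 without control replicate 3. LTR copies at or above 0.5 FPKM summed to 119, 131 and 128 RPM after UVB, against 127, 143 and 121 RPM in controls, which overlapped (exact permutation p = 0.7, n = 3 each). Internal copies at or above 0.5 FPKM summed to 91.7, 94.6 and 98.5 RPM after UVB, against 91.8, 92.7 and 82.2 RPM in controls, also with overlap (log2 difference 0.10, exact permutation p = 0.3, n = 3 each). Over copies at or above 0.5 FPKM the LTR to internal ratio still lay lower after UVB, by a log2 difference of -0.14 with no overlap (exact permutation p = 0.1, n = 3 each).

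A small part of the copies held much of the RNA. The 10 copies of highest mean RPM carried 10.4% of all THE1 RPM, the top 100 carried 32.5% and the top 1000 carried 70.8%. Of the top 10, 8 are internal copies, which are longer, with a median of 1438 bases, against 358 bases for LTR copies.

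Of the 60662 copies, 397 reached a mean of 0.5 FPKM and were tested one by one, 293 LTR and 104 internal copies. The other 60265 copies were not tested. How the authors' counter assigned reads that match several copies is not given, so the value of a single copy is uncertain. limma on log2(FPKM + 1) called 0 of the 397 at an adjusted p under 0.05, where 0.284% of the 7745 repeat copies tested passed. At an unadjusted p under 0.05 it marked 35 copies (8.82%), against 10.8% of all copies tested. Of these, 14 were higher and 21 lower after UVB, where 4.16% of all copies tested were marked as higher and 6.62% as lower. edgeR on recovered reads also called 0, against 0.232% of all copies, and marked 41 at an unadjusted p under 0.05, against 10.3% of all copies. DESeq2 on recovered reads called 1, the THE1C-int copy Repeat_3752325.606508 described further on, against 0.955% of all copies.

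The log2 fold changes of the 397 copies ran from -0.88 to 1.14 with a median of -0.03, against a median of -0.04 over all repeat copies tested. They were above 0 in 174 copies and below 0 in 223 (56.2%), against 54.9% below 0 among all copies tested. On this scale the change exceeded 1 log2 unit in 1 copy, against 0.994% of all copies tested, while by edgeR on recovered reads it did so in 57 of the 397 (19 higher and 38 lower), against 17% of all copies. The 1 copy is a THE1D LTR copy of 302 bases named Repeat_1513496.232835 and singled out after its values were seen. It had 0.365, 4.45 and 3.71 FPKM after UVB, against 0.286, 1.20 and 0.163 FPKM in controls (limma adjusted p = 0.370). UVB replicate 1 lay within the control range, so the groups overlapped.

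**Figure D3:**
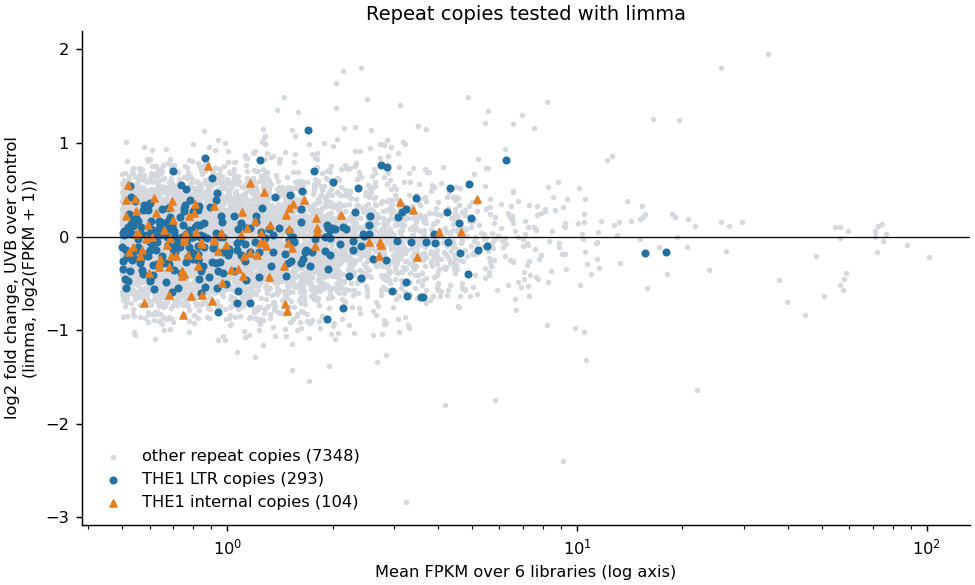
Log2 fold change of UVB over control on the log2(FPKM + 1) scale (vertical axis) against mean FPKM over 6 libraries (horizontal log axis) for 293 THE1 LTR copies, 104 THE1 internal copies and the other repeat copies tested. THE1 points lie among the grey points around 0, with a median of -0.03.

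The 5 LTR copies with the highest mean RPM are all THE1B. The highest, Repeat_1831362.276628 (330 bases), had 17.6, 16.4 and 16.5 FPKM after UVB, against 18.8, 21.7 and 16.9 FPKM in controls (log2 fold change -0.17, SE 0.12, limma adjusted p = 0.667). Every UVB library but replicate 1 lay below all controls, and the groups overlapped. The next, Repeat_1554707.238284, averaged 14.7 ± 2.23 FPKM after UVB and 16.6 ± 0.922 FPKM in controls (SD, n = 3 each). The fourth and the fifth, Repeat_3427168.552185 and Repeat_3828026.618489, averaged 5.31 ± 0.411 and 4.87 ± 0.933 FPKM after UVB, against 5.75 ± 0.344 and 5.52 ± 1.10 FPKM in controls (SD, n = 3 each), and overlapped between the groups.

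The third, the THE1B LTR Repeat_768595.113995 (353 bases), stood apart from them. It had 8.20, 8.71 and 7.89 FPKM after UVB, against 4.17, 4.06 and 4.49 FPKM in controls, from 210, 272 and 221 reads after UVB and 102, 95 and 129 reads in controls. Each UVB library was above every control library, and the means were 8.27 ± 0.412 FPKM after UVB and 4.24 ± 0.226 FPKM in controls (SD, n = 3 each), a ratio of 1.95. Its log2 fold change of 0.82 (SE 0.17) had the lowest adjusted p of all 397 copies without passing (limma adjusted p = 0.0764). It passed when only copies with a mean of at least 1 FPKM were tested (limma adjusted p = 0.0421). The authors' deposited table gives it a log2 fold change of 0.96 with an adjusted p of 0.0160. Unlike the limma value, that adjusted p does not come from an adjustment over repeat copies alone. It is a single LTR, with no other THE1 row under its element number.

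The 5 internal copies with the highest mean RPM come from 2 THE1A, 2 THE1B and 1 THE1D element. Repeat_525035.77267 (THE1A-int, 1575 bases), the strongest, had 4.82, 6.49 and 6.85 FPKM after UVB, against 4.67, 4.14 and 4.08 FPKM in controls. Its groups did not overlap, though UVB replicate 1 was close to control replicate 1 (log2 fold change 0.40, SE 0.19, limma adjusted p = 0.478). Repeat_668961.99654 (THE1D-int, 1635 bases) had 2.34, 2.33 and 2.45 FPKM after UVB, against 1.85, 1.86 and 1.89 FPKM in controls, with no overlap (log2 fold change 0.24, SE 0.20, limma adjusted p = 0.713). The remaining 3, Repeat_3816978.617092, Repeat_2194600.332719 and Repeat_4159764.677284, overlapped between the groups and had log2 fold changes of 0.04, -0.09 and -0.06.

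The authors' deposited table gives p-values for 7405 THE1 copies, and 8 of them (0.108%) have an adjusted p under 0.05 there, against 0.142% of the 110230 repeat copies with a p-value. The authors' raw and adjusted p-values do not match an adjustment over these repeat copies alone, and the set of rows it covered is not stated. Those adjusted p-values are therefore not directly comparable with the limma, edgeR and DESeq2 ones here, which cover repeat copies only. Of the 8, 3 were higher and 5 lower after UVB, where 0.0517% of all repeat copies with a p-value were called higher and 0.0907% lower. The higher ones are the THE1B LTR Repeat_768595.113995 and 2 internal copies. The THE1C-int copy Repeat_3752325.606508 (1438 bases) had 0.882, 1.34 and 1.87 FPKM after UVB, against 0.170, 0.472 and 0.539 FPKM in controls, from 92, 171 and 213 reads after UVB and 17, 45 and 63 reads in controls. The groups did not overlap, and the authors' deposited table gives a log2 fold change of 1.78 with an adjusted p of 0.00551. On the log2(FPKM + 1) scale, which understates changes of low copies, its fold change was 0.75 (SE 0.23, limma adjusted p = 0.255), while DESeq2 on recovered reads gave an adjusted p of 0.0107. The THE1D-int copy Repeat_420248.61138 had 12, 22 and 53 reads after UVB, against 1, 4 and 1 in controls, which did not overlap.

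The 5 lower copies had no read in any UVB library. The THE1B-int copy Repeat_2839120.440237 (1542 bases) had 0, 0 and 0 reads after UVB, against 31, 67 and 21 in controls. Taking a floor of 3 reads in each UVB library, its mean RPM was at least 15.2-fold lower after UVB, and the authors' deposited table gives an adjusted p of 3.82e-06. On the same floor the THE1A-int copies Repeat_2062943.309174 and Repeat_146850.18691 were at least 5.55-fold and 3.95-fold lower, and the THE1B LTR copies Repeat_3690226.596453 and Repeat_499549.73018 at least 4.26-fold and 4.10-fold lower. These 4 rest on 20, 7 and 19, on 9, 8 and 16, on 16, 2 and 18, and on 9, 14 and 10 control reads in the order named. All 5 lay under the filter of 0.5 FPKM and were not tested with limma.

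The authors also deposited a sheet of read counts for 74 repeat copies, 6 of them THE1. All 74 have a positive log2 fold change in the authors' table, the lowest 1.03, so the sheet is a selection of copies that were higher after UVB, and the direction of its members is no separate evidence. The 6 are the THE1A LTR Repeat_1851408.278407 with 122, 96 and 103 reads after UVB, against 45, 39 and 60 in controls, the THE1C-int copy Repeat_3752325.606508 given above, and 4 THE1B copies. The THE1B LTR Repeat_1191931.186369 had 63, 49 and 36 reads after UVB, against 19, 11 and 14 in controls.

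The THE1B LTR Repeat_2460954.379789 had 51, 54 and 16 reads after UVB, against 10, 8 and 5 in controls. The THE1B-int copies Repeat_4253591.693617 and Repeat_2793215.433839 had 25, 34 and 30, and 23, 20 and 30 reads after UVB, against 0, 0 and 10, and 0, 0 and 8 in controls. None of the 6 overlapped between the groups. The selection of the sheet favours such a separation, since its highest unadjusted p in the authors' test is 0.00965. The share of all 74 copies, or of all repeat copies, without overlap was not computed. edgeR within the sheet, scaled on the sheet's own counts, called 0 of the 6 and 0% of the 74, and 1 of the 6, the THE1A LTR, had an unadjusted p under 0.05, against 17.6% of the sheet. Its log2 fold change relative to the rest of the sheet was -0.75. DESeq2 within the sheet also called 0 of the 6. With library totals and scaling over all genes and copies, an alternative added after the data were seen, edgeR called all 6, with log2 fold changes of 1.00 to 3.02, as it called 100% of the 74. These calls were adjusted over the selected copies alone, so they are no separate evidence. Over all 7745 repeat copies tested, edgeR gave an adjusted p of 0.297 for Repeat_1851408.278407 and 0.206 for Repeat_3752325.606508. It gave 0.278 for both Repeat_1191931.186369 and Repeat_2460954.379789. The THE1B-int copies lay under the filter of 0.5 FPKM. The plot of single copies shows how far the groups lie apart for the 9 strongest copies that the authors' test or sheet named.

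**Figure D4:**
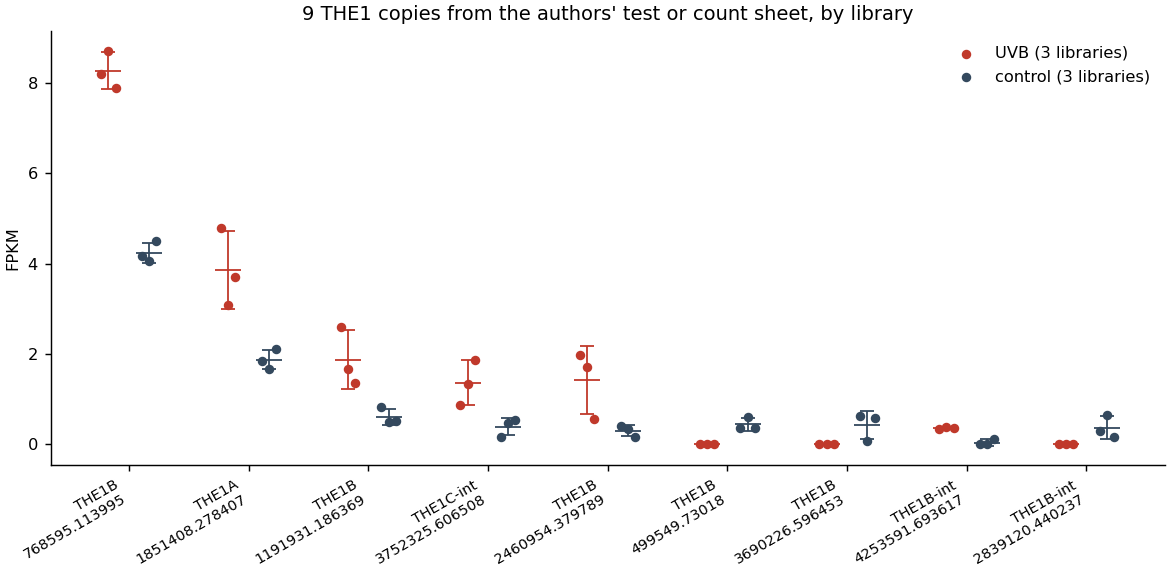
FPKM (vertical axis) of the 9 THE1 copies of highest mean FPKM among those that the authors' deposited test or count sheet singled out, chosen by those results. Points are the 3 UVB and 3 control libraries, dashes the means and bars the SD; the THE1B LTR Repeat_768595.113995 is the highest (8.27 FPKM after UVB and 4.24 FPKM in controls on average), and 3 copies (Repeat_499549.73018, Repeat_3690226.596453 and Repeat_2839120.440237) are at 0 in all UVB libraries.

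Where the element of such a copy has further rows, these did not always move with it. In element 525035 (THE1A), the LTR Repeat_525035.77266 had 6.01, 4.57 and 7.51 FPKM after UVB, against 4.79, 3.76 and 2.78 FPKM in controls, levels like those of the internal copy beside it, with overlap between the groups. The other LTR of the element, Repeat_525035.77268, had 0.242, 0.0330 and 0.590 FPKM after UVB, against 0.295, 0.0882 and 0.216 FPKM in controls. Over its whole length the element averaged 5.18 ± 0.847 FPKM after UVB and 3.60 ± 0.382 FPKM in controls (SD, n = 3 each), with no overlap.

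In element 3752325 (THE1C), the internal copy of 1438 bases did not overlap between the groups, whereas the internal row of 118 bases and both LTRs did, with 0.768, 1.02 and 1.10 FPKM after UVB, against 0.879, 0.560 and 0.457 FPKM in controls for Repeat_3752325.606507. The whole element averaged 1.22 ± 0.347 FPKM after UVB and 0.489 ± 0.127 FPKM in controls (SD, n = 3 each), with no overlap and a ratio of 2.50. Element 1851408 (THE1A) has 5 rows, and outside the LTR of the count sheet only its 167-base LTR Repeat_1851408.278403 was without overlap, at 1.49, 1.62 and 2.04 FPKM after UVB, against 0.863, 1.17 and 1.03 FPKM in controls. Its whole length averaged 3.57 ± 0.414 FPKM after UVB and 2.55 ± 0.590 FPKM in controls (SD, n = 3 each), and overlapped.

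In element 3816978 (THE1B), 1 of 3 LTR rows was without overlap. This 221-base LTR, Repeat_3816978.617091, had 2.12, 2.91 and 2.68 FPKM after UVB, against 3.85, 4.71 and 5.18 FPKM in controls. Every UVB library was below every control library (log2 fold change -0.64, SE 0.20, limma adjusted p = 0.263). The internal copy next to it in the numbering, Repeat_3816978.617092, had 4.89, 4.52 and 4.84 FPKM after UVB, against 4.49, 4.39 and 4.85 FPKM in controls, with overlap. The other LTR rows, Repeat_3816978.617090 and Repeat_3816978.617093, overlapped too, with log2 fold changes of -0.02 and -0.44. The whole element averaged 3.71 ± 0.168 FPKM after UVB and 3.88 ± 0.296 FPKM in controls (SD, n = 3 each), and overlapped.

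In element 2839120 (THE1B), whose internal copy had no read after UVB, the LTR rows still had some. Repeat_2839120.440238 had 0.192, 0.0942 and 0.245 FPKM after UVB, against 0.521, 0.251 and 0 FPKM in controls, with overlap. Repeat_2839120.440236 had 0, 0 and 0.260 FPKM after UVB, against 0.466, 0.355 and 0.217 FPKM in controls, also with overlap. The whole element had 0.0308, 0.0151 and 0.0787 FPKM after UVB, against 0.354, 0.545 and 0.148 FPKM in controls, with no overlap.

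**Figure D5:**
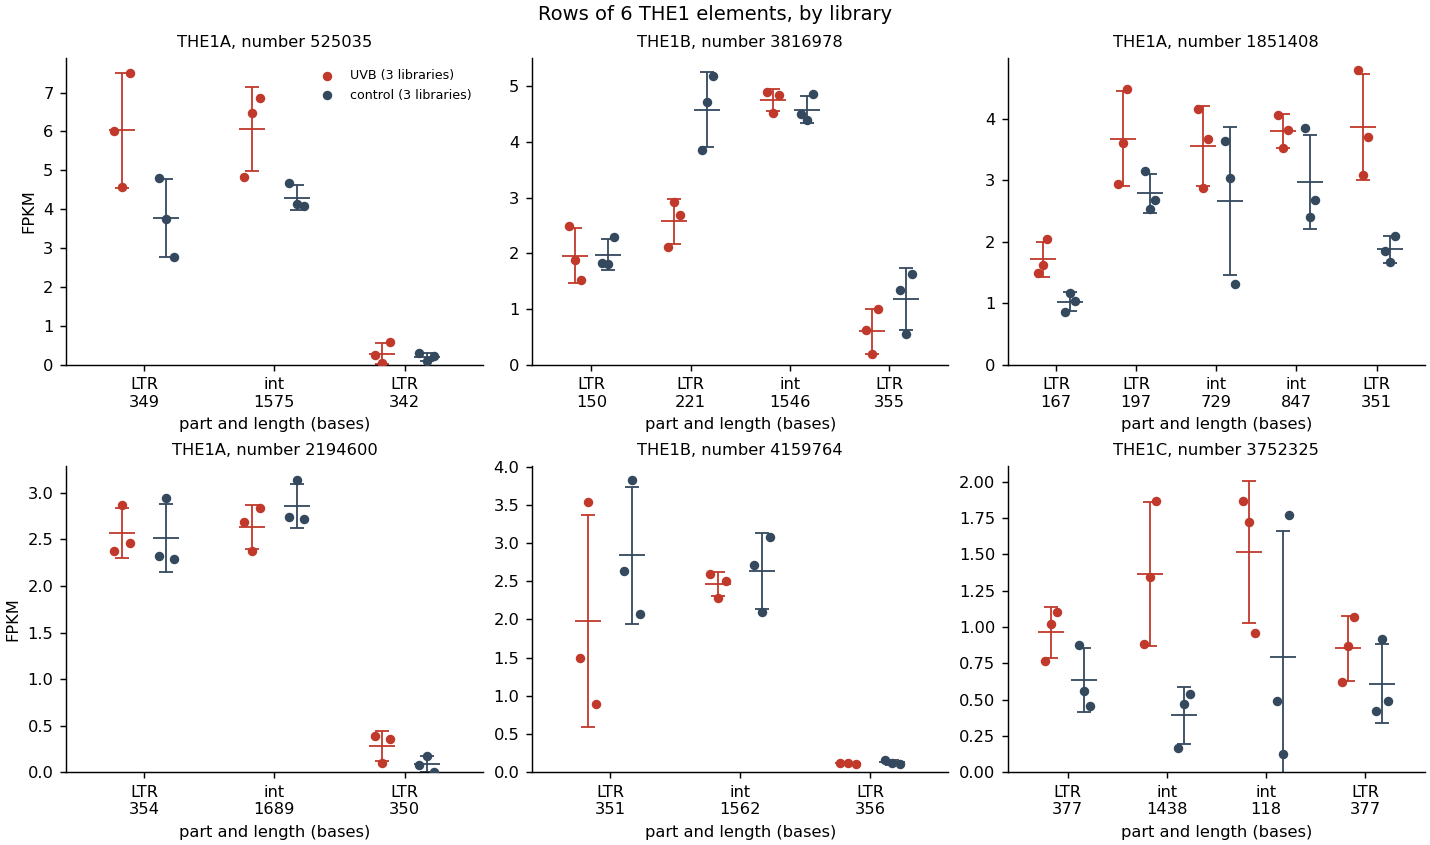
FPKM (vertical axis) of each row of 6 named THE1 elements with at least 3 rows and a mean of at least 0.5 FPKM, ordered by row number, with the kind of part and its length in bases on the horizontal axis. Points are the 3 UVB and 3 control libraries, dashes the means and bars the SD (cut at 0); in element 3816978 the 221-base LTR is lower after UVB (2.57 FPKM, against 4.58 FPKM in controls) beside an internal part at 4.75 FPKM after UVB and 4.58 FPKM in controls.

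LTR retrotransposons are held silent by histone methylation through TRIM28 and SETDB1, by the HUSH complex and by DNA methylation. A list of 24 genes of this machinery was read from the same libraries, 23 of which reached the filter of 0.5 FPKM. Of these, 5 rose and 1 fell after UVB (limma adjusted p under 0.05), and 17 did not pass. Among all 14921 genes tested 27.9% passed, 17% as higher and 11% as lower. The median log2 fold change of the list was 0.08, against 0.04 over all genes tested.

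DNMT1, the maintenance DNA methyltransferase, rose to 34.4, 34.0 and 37.9 FPKM after UVB, against 25.9, 27.6 and 24.9 FPKM in controls (log2 fold change 0.43, SE 0.06, limma adjusted p = 0.00435). MPHOSPH8, the HUSH subunit that binds methylated histone H3, averaged 12.2 ± 0.738 FPKM after UVB and 8.56 ± 0.659 FPKM in controls (SD, n = 3 each; log2 fold change 0.47, SE 0.07, limma adjusted p = 0.00530). HDAC1, a histone deacetylase, averaged 48.3 ± 0.821 FPKM after UVB and 41.2 ± 1.08 FPKM in controls (SD, n = 3 each; log2 fold change 0.23, SE 0.04, limma adjusted p = 0.00819). None of these 3, which were named because they passed, overlapped between the groups.

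CBX3, a heterochromatin protein, fell to 23.5 ± 0.786 FPKM after UVB, against 27.2 ± 0.740 FPKM in controls (SD, n = 3 each; log2 fold change -0.20, SE 0.05, limma adjusted p = 0.0197). CBX3 no longer passed without UVB replicate 1, UVB replicate 3 or control replicate 3 (limma adjusted p = 0.0669, 0.0704 and 0.0523), and the list's count of 6 was 3 without UVB replicate 1. CSF1R averaged 0.0533 FPKM after UVB and 0.0182 FPKM in controls, and CRH 0.00977 FPKM after UVB and 0.0125 FPKM in controls, so neither gene known to use a THE1B element elsewhere reached the filter, and neither was tested.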

How the data were processed

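RNA-seq of HaCaT cells (3 UVB and 3 control libraries, grouped by sample title) was analysed from processed tables. Per the submitters' processing notes, HISAT2 2.0.5, StringTie, DESeq and the build hg38 (GRCh38) were used. For the counter, strand setting, reads with several matches and origin of the repeat annotation, details were not given in the sources used here. Reads from a copy and from a gene that overlaps it therefore cannot be told apart.

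The authors deposited FPKM for 58735 genes and 771683 repeat copies (595 names). The deposited table also holds the authors' log2 fold changes, p-values, test scores and a mean normalised signal per row, per the file headers. The authors deposited read counts of 74 copies in a sheet. With these counts, library totals followed from FPKM, and 100% of non-zero values were then whole within 0.01. Whether each unit is a single read is not known.

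RPM of a name is the sum of FPKM times length in kb over its copies. Names with a mean of at least 0.1 RPM (log2(RPM + 0.1)), and copies and genes averaging 0.5 FPKM or more (log2(FPKM + 1)), were tested with limma 3.58.1 (R 4.3.3, eBayes with trend), adjusted by Benjamini-Hochberg over all names, copies or genes. Fold changes are on these scales and understate changes of low copies. edgeR 4.0.16 (TMM, quasi-likelihood) and DESeq2 1.42.0 were run on recovered reads as alternatives, and edgeR on the count sheet as planned. Single values had 2-sided exact permutation tests, with p-values adjusted by Benjamini-Hochberg (scipy 1.17.1). The limma fits of names, copies and genes and the edgeR fits of names and copies were also run on simulated data. DESeq2 and the count sheet fits were not. Detection was compared after thinning to 66272443 reads. Floors (3 reads) cover counting error only.

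Members and lists were chosen with earlier results of these data known. Named were all THE1 names, the 5 LTR and 5 internal copies of highest mean RPM, copies called by the authors' or an own test, at most 4 called genes of a list, and, chosen after their values were seen, the count sheet's THE1 copies, the copy beyond 1 log2 unit and rows of the same elements. A split by gene context and copy sequences were not analysed here, because the tables used give copies no positions.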

Additional observations from a re-analysis of the deposited data

How the results depend on the processing

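No THE1 total or ratio could pass a threshold with 3 libraries a group, so only directions are compared, on the log2 scale unless said. The internal total was -0.06 and became 0.0959 over copies with a mean of at least 0.5 FPKM (-0.15 to 0.0380 on leaving out each library). On the same copies THE1 over MLT1 became 0.0302 and the THE1D LTR to internal ratio 0.0097 (-0.0232 to 0.0078, and -0.0430 to 0.0173, on leaving out each library). The MLT1 LTR to internal ratio became 0.0016 without its highest copy (-0.0447 to 0.0322). Leaving out each library gave -0.0718 to 0.146 percentage points for the THE1 share of repeat reads, -0.0430 to 0.0659 for THE1 RPM in copies over the filter, and -0.10 to 0.0216 for LTR RPM there. Quantile normalization turned THE1B-int to 0.0496, THE1C-int to 0.183 and THE1D to 0.0420. Leaving out each library gave THE1A -0.18 to 0.0107, THE1A-int -0.0067 to 0.133, THE1B-int -0.20 to 0.00086 and THE1C-int -0.14 to 0.0815. The number of THE1 names called was 0 to 1, the 1 without control replicate 3. THE1 copies called were 1 with a filter at a mean of 1 FPKM and 1 with DESeq2. Repeat_4159764.677284 ran from -0.17 to 0.0298. In the count sheet 0 to 2 copies were called on leaving out each library, the 2 without control replicate 3, and 6 with library totals and TMM over genes and copies, where Repeat_1851408.278407 became 1.00 and Repeat_1191931.186369 became 1.58. Within the sheet Repeat_1191931.186369 ran from -0.39 to 0.192 and Repeat_3752325.606508 from -0.24 to 0.447. Genes called on the silencing list were 3 to 6 on leaving out each library and 7 with a filter at a mean of 1 FPKM. The cause of these shifts was not tested, except that the sheet's own scaling is set by 74 copies that were all chosen as higher. Same-numbered libraries of the groups had correlations of 0.048, 0.0221 and 0.0298 in their deviations, so the numbers are not taken as pairs. With the replicate block the silencing list had 3 calls, CBX3 not among them (limma adjusted p = 0.0615), the LTR to internal ratio had p = 0.25 (the smallest an exact permutation of 3 pairs gives), and no THE1 name or copy was called. The gene context split was not run.

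Depth limits single copies: 397 of 60662 reached the filter and were tested here one by one, while 6 of the 8 that the authors' deposited table calls lie under it. How reads that match several copies were assigned is not stated. The summed keratinocyte marker level, most of it KRT5 and SFN, was lower in every UVB library than in any control. The share of repeat reads and the number of detected other repeat copies were lower on average after UVB, with overlap between the groups. The part of these values in the THE1 results was not tested.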
